A study of Mus musculus with 2 samples.

Results

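The cluster of miR-183, miR-96 and miR-182 is a set of 3 miRNA hairpins, Mir183, Mir96 and Mir182, that are transcribed together. Its members were the 6 mature names from the arms of these hairpins, mmu-miR-183-5p, mmu-miR-183-3p, mmu-miR-96-5p, mmu-miR-96-3p, mmu-miR-182-5p and mmu-miR-182-3p, chosen by name and not by any measured value. All 6 occurred among the 1477 miRNA names of the series. Replicate 1 held 5 of them and replicate 2 held 6. The series comprises 2 libraries, labelled as replicates 1 and 2 of 1 condition. Skin keratinocytes of the mouse, grown in low-calcium medium, expressed an exogenous Dsp-BirA fusion and received biotin. Dsp is desmoplakin, a protein of the desmosomal plaque, and BirA is a biotin ligase that labels proteins near the fusion. RNA bound to the biotin-labelled proteins was recovered on streptavidin beads by CLEAR-CLIP, a method that captures RNA held by Argonaute proteins, so that Argonaute at the plaque could be studied. Both libraries share the fusion, the biotin and the pulldown, and a library without them was not analysed here, so the values are levels within the pulldown and not enrichments. The labels do not say whether the replicates were separate cultures, so their spread may be technical.

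A miRNA gene is transcribed as a long precursor, from which a hairpin is cut out and then trimmed to a short duplex of a 5p and a 3p strand. One strand is usually kept by Argonaute as the guide, and the other is mostly lost. The guide finds target RNAs mainly by its seed, bases 2 to 8 counted from its 5′ end. The miR-183 cluster is best known from sensory organs, where it is abundant in photoreceptors and in hair cells of the inner ear, and changes in the miR-96 seed cause hearing loss. It is also expressed in epithelial tissues and in many carcinomas.

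The locus lies on the minus strand of chromosome 6 (GRCm38.p6, the assembly that mm10 denotes). In the direction of transcription the order is Mir183 (chr6:30169668-30169737), Mir96 (chr6:30169446-30169551) and Mir182 (chr6:30165918-30165992). Only 116 bases separate Mir183 from Mir96, while 3453 bases separate Mir96 from Mir182, and the whole cluster spans 3820 bases. All 3 hairpins fall within the bounds of Mirc35hg, a long non-coding RNA gene whose symbol marks it as the host of a miRNA cluster (chr6:30158640-30174125). The hairpins are shown whole because the arms compared below lie within them. Each was taken from RefSeq (GRCm38.p6) and is written 5′ to 3′, with the 2 mature arms in capitals, the 5p arm coming before the 3p arm:
Mir183: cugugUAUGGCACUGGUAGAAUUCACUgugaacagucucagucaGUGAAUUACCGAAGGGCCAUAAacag
Mir96: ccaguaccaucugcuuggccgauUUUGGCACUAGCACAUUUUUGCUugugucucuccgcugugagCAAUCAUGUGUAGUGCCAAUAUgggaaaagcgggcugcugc
Mir182: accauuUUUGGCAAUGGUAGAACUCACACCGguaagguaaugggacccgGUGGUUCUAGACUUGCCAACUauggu

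The mature strands, from the same source, are shown with the seed in capitals because the 3 abundant ones have related but not identical seeds:
miR-183-5p: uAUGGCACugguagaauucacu
miR-96-5p: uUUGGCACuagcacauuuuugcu
miR-182-5p: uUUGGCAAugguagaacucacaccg
miR-183-3p: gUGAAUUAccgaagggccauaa
miR-96-3p: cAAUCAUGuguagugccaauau
miR-182-3p: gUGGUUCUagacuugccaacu

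The 3 strands ending in 5p share the 5 bases UGGCA at positions 3 to 7, and their seeds differ at one or both ends. Counted from the 5′ end, the seed of miR-183-5p differs from that of miR-96-5p by A2U. The seed of miR-96-5p differs from that of miR-182-5p by C8A, and those of miR-183-5p and miR-182-5p differ by both A2U and C8A. The RNA letters that pair with the whole seed are therefore GUGCCAU for miR-183-5p, GUGCCAA for miR-96-5p and UUGCCAA for miR-182-5p. Over the whole strand, miR-183-5p and miR-182-5p were the closest pair, identical at 18 of 22 positions, with A2U, C8A, U17C and U22A between them. miR-183-5p and miR-96-5p matched at 13 of 22 positions, and miR-96-5p and miR-182-5p at 12 of 23. The 3p strands have unrelated seeds and matched each other at 7 positions in every pair.

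Among the 1231 names of the tables with a RefSeq mature sequence, 4 (0.325%) held UGGCA at positions 3 to 7. These were the 3 cluster members and miR-7022-5p, which had 94 counts in replicate 1 and 10 in replicate 2. Among these 1231 names, the cluster supplied 99.96% of the counts carrying this core. Names without a sequence could not be searched. No other name with a sequence shared the full seed of miR-183-5p, miR-96-5p or miR-182-5p. Of the 3p strands, only the seed of miR-96-3p recurred, in miR-3475-5p, with 0 counts in replicate 1 and 15 in replicate 2.

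Replicate 1 contained 3776893 miRNA counts and replicate 2 contained 4122955. Levels are given as CPM, counts per 1000000 miRNA counts. A count of 0 allows up to 3 counts, which is 0.794 CPM in replicate 1 and 0.728 CPM in replicate 2. The keratinocyte label was matched by the epithelial marker list, of which 7 of 7 names were found in both libraries, at 10.59% and 10.62% of the counts. The lists for melanocytes, neurons, muscle, blood, mesenchyme and liver each took at most 0.0114% of a library. Of these, miR-204-5p and miR-211-5p, listed for melanocytes and retina, were at 0 counts in replicate 1 and at 26 and 5 in replicate 2. miR-9-5p, listed for neurons and retina, had 418 and 419 counts.

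The cluster was an abundant part of the pulldown and gave nearly the same share in both libraries. Its 6 names had 139224 counts in replicate 1 and 151823 in replicate 2, or 3.69% and 3.68% of all miRNA counts. The mean share was 3.684% ± 0.00270 (SD, n = 2). Almost all of it came from the 3 strands ending in 5p, with 36700 ± 31.2 CPM together, against 142.8 ± 4.22 CPM for the 3 strands ending in 3p.

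mmu-miR-182-5p was the most abundant member. It had 69931 counts (18516 CPM, exact 95% interval 18380 to 18652) in replicate 1 and 75315 counts (18267 CPM, 18138 to 18397) in replicate 2. It ranked 11 among all names in each library and made up 49.9% ± 0.440 of the cluster's counts (SD, n = 2).

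mmu-miR-183-5p was next in the cluster. It had 44873 counts (11881 CPM, 11772 to 11991) in replicate 1 and 50385 counts (12221 CPM, 12115 to 12327) in replicate 2. It ranked 21 and 19, and made up 32.7% ± 0.676 of the cluster. This was the one abundant member whose CPM was higher in replicate 2.

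mmu-miR-96-5p, the member whose seed is altered in inherited hearing loss, was the lowest of the abundant strands. It had 23892 counts (6326 CPM, 6246 to 6406) in replicate 1 and 25522 counts (6190 CPM, 6115 to 6266) in replicate 2. It ranked 33 in both and made up 17.0% ± 0.248 of the cluster. The intervals of these 3 strands did not touch in either library, and their order was the same in both.

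The 3p strands were far lower and followed another order. miR-183-3p led them with 508 counts (134.5 CPM, 123.1 to 146.7) in replicate 1 and 557 counts (135.1 CPM, 124.1 to 146.8) in replicate 2, and ranked 210 by its mean CPM. miR-182-3p, from the hairpin with the most counts, had 20 counts (5.30 CPM, 3.23 to 8.18) in replicate 1 and 37 counts (8.97 CPM, 6.32 to 12.4) in replicate 2. miR-96-3p had no count in replicate 1 and 7 counts (1.70 CPM, 0.683 to 3.50) in replicate 2. With so few counts its level is known only roughly. These intervals cover counting error only, since reads copied by PCR are not independent molecules.

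**Figure D1:**
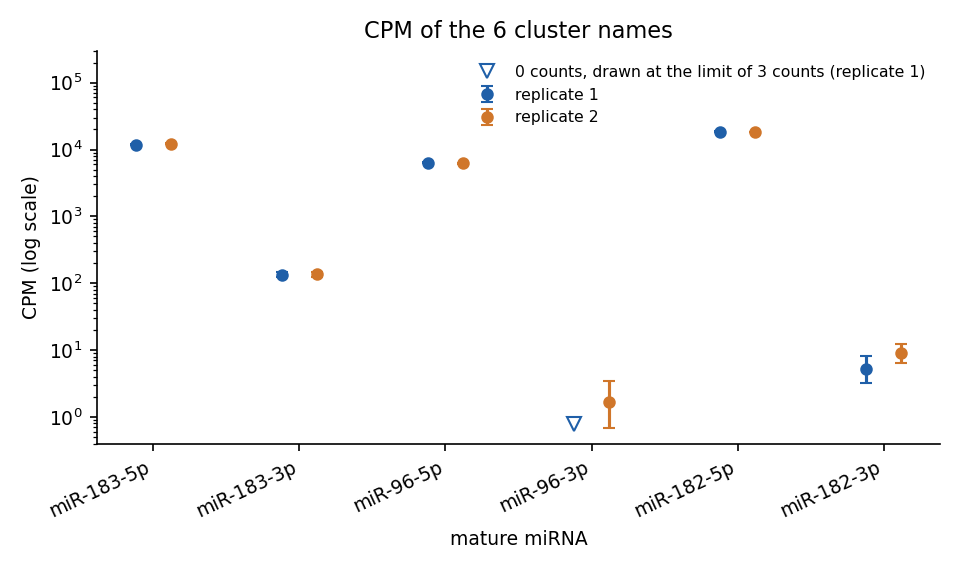
CPM (log scale) of the 6 mature names in replicate 1 (blue) and replicate 2 (orange), with exact 95% intervals of counting error. The 3 strands ending in 5p lie between 6190 and 18516 CPM, miR-183-3p lies near 135 CPM, and the other 3p strands lie below 10 CPM, with miR-96-3p at 0 counts in replicate 1 drawn as an open triangle at the limit of 3 counts.

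The hairpins of the cluster were recovered unequally, and by nearly the same factors in both libraries. miR-182-5p had 1.56 times the counts of miR-183-5p in replicate 1 (95% interval 1.54 to 1.58) and 1.49 times in replicate 2 (1.48 to 1.51), a mean of 1.53 ± 0.0450 (SD, n = 2). miR-183-5p had 1.88 times the counts of miR-96-5p in replicate 1 (1.85 to 1.91) and 1.97 times in replicate 2 (1.94 to 2.004), a mean of 1.93 ± 0.0679. miR-182-5p had 2.93 times the counts of miR-96-5p in replicate 1 (2.88 to 2.97) and 2.95 times in replicate 2 (2.91 to 2.99), a mean of 2.94 ± 0.0170. Each ratio has the more abundant strand on top, so a value above 1 follows from the setup, and the excess was many times the SD. The intervals of the 2 libraries did not overlap for miR-182-5p over miR-183-5p or for miR-183-5p over miR-96-5p. These ratios thus differed between the libraries by more than counting error. The ratio of miR-182-5p over miR-96-5p was the steadiest. Since flipping the signs of 2 values gives no exact p-value below 0.5, the size of all these ratios is set against their SD only. Ligation and amplification can favour one miRNA over another, and their part in these ratios was not tested.

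The order of the levels did not follow the order of the hairpins. Mir183 and Mir96, the pair 116 bases apart, differed 1.93-fold in their 5p strands, more than Mir183 and the distant Mir182. Mir96, the middle hairpin, was lowest. Mir182, the most distant hairpin along the transcript, was highest. With both arms summed, Mir183 had 12186 ± 241 CPM, Mir96 had 6259 ± 94.7 CPM and Mir182 had 18399 ± 173 CPM (SD, n = 2).

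**Figure D2:**
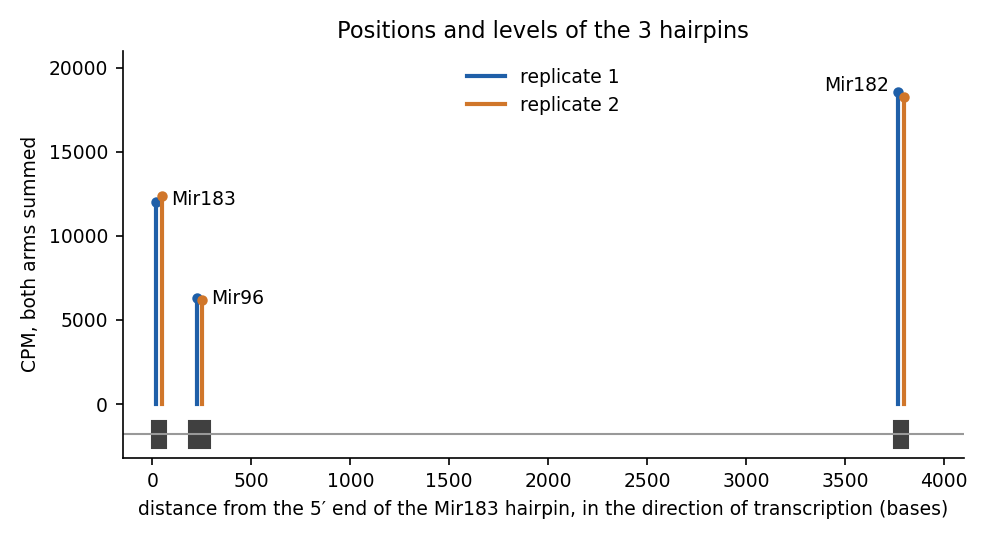
Levels of the 3 hairpins (CPM, both arms summed, linear axis from 0) against their distance in bases from the 5′ end of the Mir183 hairpin, along the direction of transcription. Boxes below the axis mark each hairpin to scale, and the bars show 12015 and 12356 CPM for Mir183, 6326 and 6192 for Mir96 and 18521 and 18276 for Mir182 in replicates 1 and 2.

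Such a spread was common among miRNA clusters. Annotated clusters were taken as runs of miRNA hairpins on one strand with at most 10 kb between neighbours, leaving out hairpins whose mature strand has more than 1 gene and clusters whose least abundant hairpin had a mean under 10 counts. In the 28 clusters of this kind, the most abundant hairpin had a median of 3.02 times the level of the least abundant, against 2.94 ± 0.0168 for the miR-183 cluster. Of the 28, 13 (46.4%) had a smaller ratio. In 7 of the 13, each with at most 16.0 CPM in all, the order of the hairpins was turned in one library, so that those ratios are poorly measured. With a minimum of 100 counts for the least abundant hairpin, 33.3% of 15 clusters had a smaller ratio. Clusters with more hairpins can be expected to spread more, and among the 7 clusters of at least 3 hairpins the miR-183 cluster had the smallest ratio. Clusters cut to a pair by leaving out a hairpin, such as miR-23a with miR-27a, are not among these 7. The rank of the miR-183 cluster is a description, with no test.

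Other epithelial or widely expressed clusters, taken by name, gave the following values. The cluster of miR-200b, miR-200a and miR-429, an epithelial cluster that restrains the mesenchymal state, had a ratio of 3.18 in replicate 1 and 3.02 in replicate 2, and took 2.47% of the counts. The cluster of miR-106b, miR-93 and miR-25, hosted by a replication-licensing gene, had 4.20 and 4.23, and took 1.13%. The pair of miR-141 and miR-200c had 5.30 and 6.05, and took 4.42%. Every cluster named here with a smaller ratio was counted as a pair. Such ratios were found for the pairs miR-23b with miR-27b (2.23 and 2.11) and miR-23a with miR-27a (2.49 and 2.61), whose neighbour miR-24-3p was left out because 2 genes encode it. The pairs miR-191 with miR-425 (2.45 and 2.23) and miR-221 with miR-222 (2.50 and 2.51) were also lower. The 4 hairpins of the miR-17 cluster that could be used had 3.37 and 3.76. The absolute difference between the libraries was smaller for the miR-183 cluster (2.93 and 2.95) than for these others, except for miR-221 with miR-222. Relative to its size, the ratio of the miR-106b cluster (4.20 and 4.23) moved about as little.

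**Figure D3:**
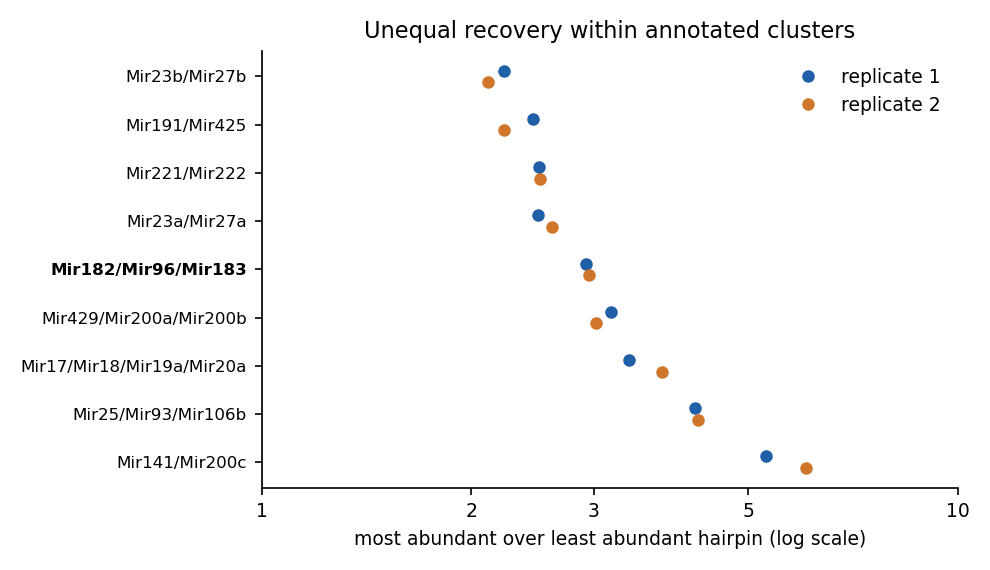
Level of the most abundant hairpin over that of the least abundant (log scale) in 9 annotated clusters, for replicate 1 (blue) and replicate 2 (orange), with the cluster of miR-183, miR-96 and miR-182 in bold. Its values of 2.93 and 2.95 lie in the middle of the range, from 2.11 for miR-23b with miR-27b to 6.05 for miR-141 with miR-200c.

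All 3 hairpins gave nearly all of their counts from the 5p arm, but the remainder differed between them. The 3p arm took 1.12% of the miR-183 counts in replicate 1 (exact 95% interval 1.02% to 1.22%) and 1.09% in replicate 2 (1.005% to 1.19%). It took 0.0286% of the miR-182 counts in replicate 1 (0.0175% to 0.0442%) and 0.0491% in replicate 2 (0.0346% to 0.0677%). For miR-96 it took 0 of 23892 counts in replicate 1 (0% to 0.0154%), and 0.0274% in replicate 2 (0.0110% to 0.0565%). The intervals of miR-183 lay above those of both other hairpins in each library. The share of miR-182 was above that of miR-96 in both libraries, but their intervals overlapped in replicate 2, so the order is not resolved there.

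Expressed as a ratio, miR-183-5p had 88.3 times the counts of miR-183-3p in replicate 1 and 90.5 times in replicate 2. miR-182-5p had 3497 times the counts of miR-182-3p in replicate 1 and 2036 times in replicate 2. With 3 counts taken for the count of 0, miR-96-5p was 7964-fold higher than miR-96-3p in replicate 1, which is not a strict lower bound. In replicate 2 it was 3646 times as high. The ratios for miR-182 and miR-96 rest on at most 37 counts of the minor arm and are imprecise for that reason.

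The makeup of the 3p pool was unlike that of the 5p pool. miR-183-3p held 96.2% of the cluster's 3p counts in replicate 1 and 92.7% in replicate 2, although miR-183-5p gave 32.7% of all cluster counts. miR-182-3p held 3.79% and 6.16%, although miR-182-5p gave 49.9%. miR-183-3p had 25.4 times the counts of miR-182-3p in replicate 1 (95% interval 16.3 to 41.9) and 15.1 times in replicate 2 (10.8 to 21.6), the reverse of the order of their 5p strands.

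Arm choice was set beside that of the 164 hairpins for which the tables name each arm, with 100 counts or more per library. An exact two-sided binomial test against equal arms, with Benjamini-Hochberg adjustment over the hairpins, was passed in both libraries with the 5p arm dominant by 58.5% of them, and with either arm dominant by 91.5%. All 3 cluster hairpins were among the former. By the mean of the libraries, the 5p arm was the dominant one in 64.0% of the 164. The less abundant arm held a median of 5.44% of the counts over the 164 hairpins, with quartiles of 0.849% and 19.8%. For miR-96 it held 0.0137% on average, with miR-374b alone below it, a place that rests on the count of 0 in replicate 1, shared with 4 other hairpins. In replicate 2 alone, 11 hairpins lay below miR-96. For miR-182 it held 0.0388%, with 7 hairpins below it in replicate 1 and 14 in replicate 2. For miR-183 it held 1.11%, with 47 and 50 below it. miR-96 and miR-182 were thus among the most one-sided hairpins recovered, while miR-183 lay above the lower quartile. These places depend on depth, since the less abundant arm held a median of 2.05% among hairpins with at least 1000 counts per library.

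**Figure D4:**
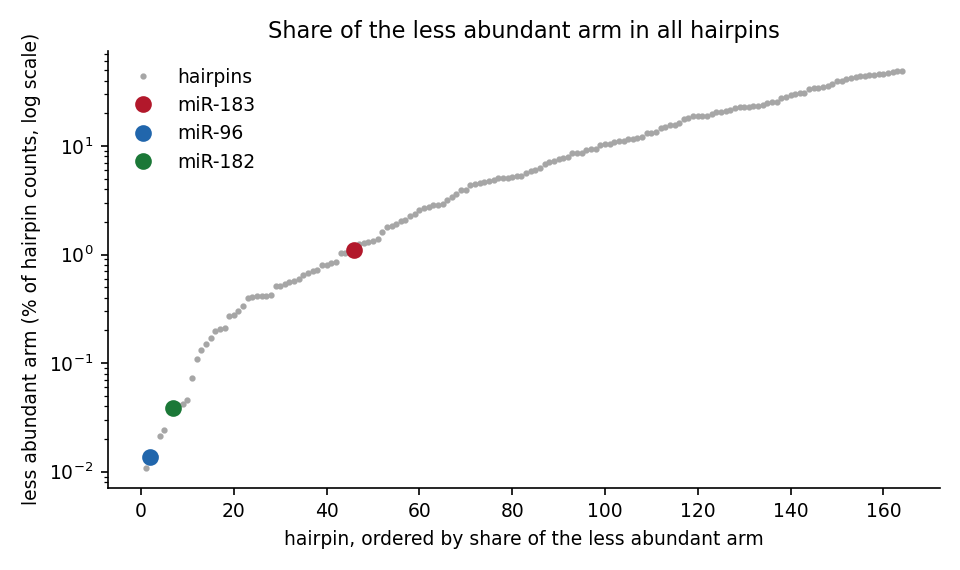
Share of the less abundant arm (percent of a hairpin's counts, mean of the 2 libraries, log scale) for 164 hairpins in ascending order. miR-96 (blue, 0.0137%) and miR-182 (green, 0.0388%) lie at the low end, and miR-183 (red, 1.11%) has 45 hairpins below it in this mean.

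The arms differ in features often related to strand choice. A strand that begins with U, and whose 5′ end is weakly paired, is favoured by Argonaute in general. Each of the 3 abundant strands begins with U, while miR-183-3p and miR-182-3p begin with G and miR-96-3p with C. Among the 117 of the 164 hairpins with RefSeq sequences for both arms, the dominant arm began with U in 53.8% and the minor arm in 13.7%. The dominant arm began with U and the minor arm did not in 48.7%. Of the first 4 bases, 3 are A or U in each abundant strand, against 2 in miR-183-3p, 1 in miR-182-3p and 3 in miR-96-3p. The dominant arm had more A or U there than the minor arm in 45.3% of the 117 hairpins. The arms of miR-96 thus did not differ in this count, although its 3p arm held few or no counts.

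The hairpins printed above were also folded by computation, a step chosen after the arm shares were known. In the predicted fold with the lowest free energy, the first base of miR-183-5p was paired, while those of miR-96-5p and miR-182-5p were not. The first bases of all 3 strands ending in 3p were paired. Among the first 4 bases of each 3p strand, those paired as G with C numbered 3 in miR-182-3p, 2 in miR-183-3p and 1 in miR-96-3p, against 1 in each 5p strand. The predicted energies, not corrected for length, were -26.2 kcal/mol for Mir183 (70 bases), -47.9 kcal/mol for Mir96 (106 bases) and -29.9 kcal/mol for Mir182 (75 bases). These are predictions for 3 hairpins, and their part in the arm shares was not tested.

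The members varied little between the libraries. The log2 ratio of replicate 2 over replicate 1, after scaling by the library totals, was 0.041 for miR-183-5p (exact 95% interval 0.022 to 0.059). It was -0.031 for miR-96-5p (-0.057 to -0.0058) and -0.019 for miR-182-5p (-0.034 to -0.0046). In an exact two-sided binomial test over the 1002 names that averaged 10 counts or more, Benjamini-Hochberg adjusted p-values were 3.03e-05, 0.0241 and 0.0155 in this order. Over all these names 70.6% passed at 0.05, as did 81.4% of the 59 names that averaged 10000 counts or more, so passing is the ordinary outcome at this depth. The median absolute log2 ratio of those 59 names was 0.053, and all 3 members lay below it. With DESeq2 size factors in place of totals, miR-96-5p (log2 ratio -0.013, adjusted p-value 0.377) and miR-182-5p (-0.0012, 0.909) no longer passed. The test compares 2 libraries of 1 condition and says nothing of conditions.

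The 3p strands, with fewer counts, had wider intervals. miR-183-3p had a log2 ratio of 0.0064 (-0.17 to 0.18) and miR-182-3p one of 0.76 (-0.061 to 1.62), with adjusted p-values of 0.971 and 0.0855 in the same exact binomial test. In the class of miR-182-3p, names averaging 10 to 30 counts, 261 of 400 had counts in both libraries. The log2 ratios of those 261 had an SD of 2.47, and the difference of miR-182-3p was within that spread. In the class of miR-183-3p, from 300 to 1000 counts, the SD was 0.48. miR-96-3p, with 0 and 7 counts, averaged under 10 counts and so had no test here. The exact interval of its log2 ratio began at 0.40 and had no upper bound. With no minimum on the mean count its adjusted p-value in the exact binomial test was 0.0279, where 61.1% of all 1477 names passed. For the cluster as a whole the log2 ratio was -0.0015 (-0.012 to 0.0090), since the small excess of miR-183-5p in replicate 2 was offset by the other 2 strands.

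**Figure D5:**
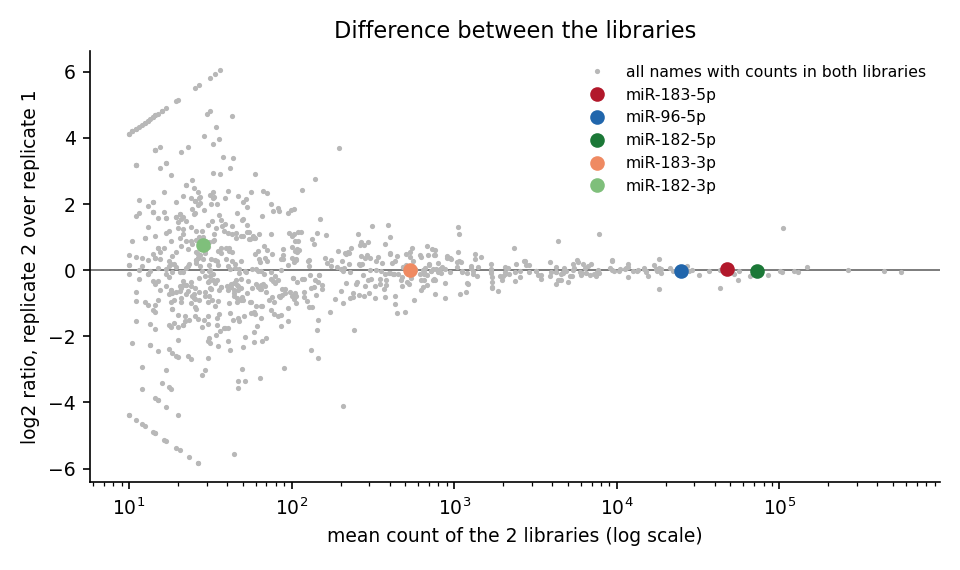
Log2 ratio of replicate 2 over replicate 1 against the mean count (log scale) for names with counts in both libraries (grey) and 5 cluster members (coloured). The 3 abundant strands lie between -0.031 and 0.041, miR-183-3p at 0.0064 and miR-182-3p at 0.76, where grey points spread widely.

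The names nearest to each abundant member in level, by distance of log2(CPM + 1) over the 2 libraries, show the scale of its recovery. miR-24-3p (12207 ± 348 CPM), miR-27b-3p (11796 ± 278 CPM) and miR-26a-5p (11905 ± 415 CPM) were nearest to miR-183-5p, at 12051 ± 240 CPM (SD, n = 2). Each of these differed from it by less than its own SD. let-7a-5p (6203 ± 225 CPM), miR-19b-3p (6191 ± 298 CPM) and miR-200c-3p (6608 ± 363 CPM) were nearest to miR-96-5p, at 6258 ± 95.9 CPM. miR-125a-5p (18750 ± 892 CPM), let-7c-5p (16680 ± 1345 CPM) and miR-6240 (21454 ± 1665 CPM) were nearest to miR-182-5p, at 18391 ± 176 CPM. The last of these sets was the most distant, with let-7c-5p below and miR-6240 above miR-182-5p in both libraries. Likeness here rests on 2 libraries of 1 condition, and so it means only a similar level.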

How the data were processed

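The authors deposited, per library, whole-number counts of mature miRNA names, not normalised. Per the submitters' processing notes, cutadapt, Novoalign and the build mm10 were used; how PCR copies, reads matching several miRNAs and chimeras were counted is not given in the sources used here. Unlisted names were set to 0, and names beginning with Cali (at most 0.00265% of a library) stayed out of totals. The replicate libraries held 3776893 and 4122955 miRNA counts. CPM, ratios, exact binomial intervals and tests were computed with scipy 1.17.1, numpy 2.4.6 and pandas 2.3.3 under Python 3.11.15. edgeR 4.0.16 (TMM) and DESeq2 1.42.0, in R 4.3.3, supplied alternative scalings only, since 1 group allows no quasi-likelihood test. RNAfold 2.7.2 with default settings predicted folds. Figures used matplotlib 3.10.9. RefSeq tables (GRCm38.p6) gave sequences and positions for 1231 of 1477 names (83.3%). An arm missing there was added to its hairpin by name. On simulated counts for 1002 names, the binomial test between libraries called 62% of 200 names changed 2-fold, each with the correct sign. Of the calls, 2.36% were false. The simulated counts varied by counting error only. Between the real libraries 70.6% of names passed, so the simulated rates do not carry over to them. Named were the 6 members, the 3 names nearest to each abundant member, names sharing a seed, and 8 clusters. The members, lists and tests were chosen with earlier results of these data known. Genes and sequences named outside that rule (miR-7022-5p, miR-374b and the folds) were chosen after their values were seen.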

Additional observations from a re-analysis of the deposited data

How the results depend on the processing

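Of the results that answer a comparison, 14 recomputed values were classed as moved. Another 51 were classed as within the spread or on the same side of the threshold. None reversed. Values among the 51 could still shift. The percentage of clusters with a smaller ratio, 46.4% in the main setting, was 33.3% at a minimum of 100 counts and 38.9% at a minimum of 1. It was 42.3% without replicate 2 and 41.7% without replicate 1. The names differing between the libraries, 707 in the main setting, numbered 903 with no minimum and 529 with arms summed. The share of the 6 names was 4.29% when miR-31-5p was left out of the total and 4.07% when names with a number from 2000 were left out, which follows from the smaller totals. Ratios between hairpins and arm shares kept their size with arms or libraries summed and with a pseudocount of 0.5. With neighbours at most 1 kb apart, Mir182 falls outside the cluster, so that its ratio was 1.95, the median of clusters 2.62 and the percentage of clusters with a smaller ratio 12.5%, against 46.4%. The median was 3.07 at 50 kb, 3.29 at a minimum of 100 counts and 3.39 at a minimum of 1. The number of names differing between the libraries was 254 of 358 (70.9%) when only those averaging 100 counts or more were tested, against 70.6% in the larger set. The 5p arm dominated in 55.7% of hairpins at 20 counts, against 64.0% at 100. The median minor arm held 13.2% at 20 counts and 2.05% at 1000, against 5.44%. At an adjusted p-value of 0.01 in the exact binomial test, miR-96-5p and miR-182-5p did not pass. Leaving out each library gave the other's value. The ranges were 3.02 to 3.12 for the median cluster ratio and 5.10% to 5.37% for the median minor arm. Depth limits miR-96-3p and miR-182-3p, with at most 37 counts in a library. No paired analysis was possible because both libraries belong to 1 group.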
